A study of Sus scrofa with 16 samples.

Results

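Antimicrobial and protease inhibitor genes of the gut epithelium were followed through single cells of the pig small intestine. The 6 genes were LYZ, ITLN2, RETNLB, LYPD8, SPAI-2 and SPINK1, of 25880 genes in the count tables, and each was found by its symbol. The symbol of 5 genes stands in the deposited files, and that of LYPD8 came from a table of gene names. The genes were chosen by their levels per region and by how much of each lay in single barcodes of these same tables. All levels are therefore given as a description, and none was tested.

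The epithelium keeps bacteria away from its surface with secreted proteins and holds proteases in check with small inhibitors. LYZ encodes lysozyme, which cuts the bacterial cell wall, and is made both by secretory epithelial cells and by macrophages. ITLN2 encodes an intelectin, a lectin of the family that binds microbial sugars. RETNLB encodes resistin-like beta, a peptide secreted by goblet cells, the mucus-making cells of the gut. LYPD8 encodes a surface-anchored protein that can be shed and binds flagellated bacteria. SPAI-2 encodes a pig protein of the whey acidic protein family, related to the elastase inhibitor elafin and first described as a sodium-potassium ATPase inhibitor of the duodenum. SPINK1 encodes a Kazal-type inhibitor of trypsin.

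The animals were 7.5-week-old mixed-breed female pigs. DUOD was duodenum next to the pylorus and JEJ was jejunum further down. IPP was ileum with Peyer's patches, which are lymphoid follicles in the wall of the gut, and NoPP was ileum without them. Epithelium was released with dithiothreitol and EDTA and enriched on Percoll, so cells that stay in the wall during this release are represented less. The labels list 16 titles, 4 for each region, but each region has 1 matrix and its barcodes carry no mark of the title, so a region was 1 sample. No p-value or standard error could be given, and every interval below covers counting error only.

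Droplet barcodes were kept with at least 1000 UMIs (unique molecular identifiers, each counting 1 captured RNA molecule), at least 500 genes and at most 25% mitochondrial UMIs. DUOD then held 718 barcodes, JEJ 986, NoPP 2084 and IPP 3273. In DUOD, 122 of 251 epithelial barcodes also had at least 1000 UMIs in another library. A further 121 NoPP barcodes were set aside because a different library held the same barcode at 10-fold or greater depth. Those barcodes held 1187 LYPD8 UMIs, 28 LYZ UMIs and 17 SPINK1 UMIs, and 0 UMIs of ITLN2, RETNLB and SPAI-2. Cell classes were gated on the number of marker genes with a UMI, and barcodes that passed the gates of more than 1 lineage were called mixed. The epithelial gate was passed by 251 barcodes in DUOD, 286 in JEJ, 126 in NoPP and 234 in IPP, with a median of 9 of 10 measured epithelial markers. Their median depth was 23180, 8110.5, 12082.5 and 15679.5 UMIs in the same order. Only 4 or 5 epithelial markers, 4 being the minimum, were found in 36, 79, 12 and 9 of them. No epithelial barcode passed the gate for Paneth cells, the antimicrobial secretory cells of the crypt base, which asked for 3 of 5 measured markers other than LYZ and ITLN2.

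Each of the 6 genes had its own distribution along the intestine. Levels are given in CPM, the UMIs of a gene per 1000000 UMIs of the class. In epithelial barcodes, JEJ was at least 2-fold higher than DUOD for ITLN2, RETNLB and SPINK1 and at least 2-fold lower for LYPD8 and SPAI-2. These were 3 and 2 of 6 genes, where 10.9% of all 9680 genes compared were that much higher and 8.29% lower. Against JEJ, NoPP was at least 2-fold higher for ITLN2 and SPAI-2 and lower for LYZ, RETNLB and SPINK1, or 2 and 3 of 6 genes, where 17.0% of all genes were higher and 7.28% lower. Against DUOD, NoPP was higher for ITLN2, RETNLB and SPAI-2 and lower for LYPD8 and SPINK1, or 3 and 2 of 6, beside 22.9% and 8.41% of all genes. Between the 2 ileal regions, 0 of 6 genes were at least 2-fold higher in IPP and 2, ITLN2 and RETNLB, were lower, beside 3.22% and 13.4% of all genes. The comparisons that share a region are not independent of each other.

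**Figure D1:**
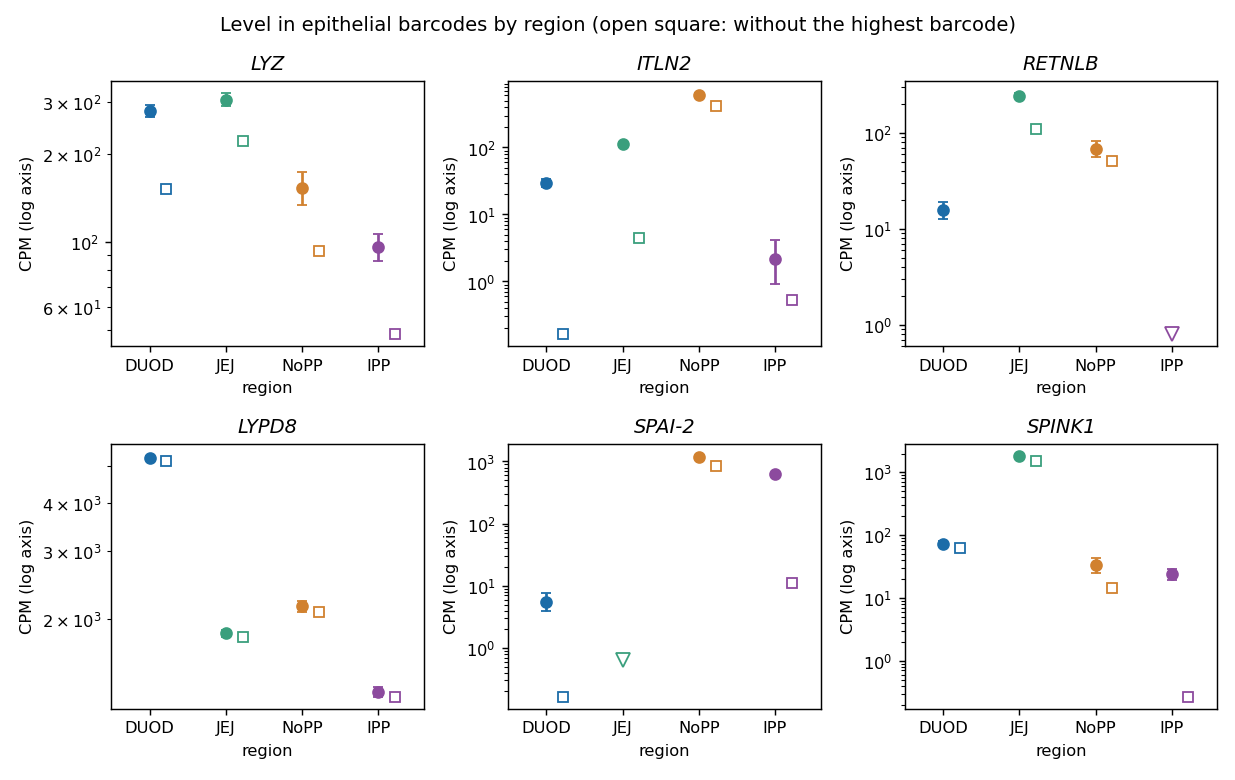
Level of each gene in epithelial barcodes, in CPM (log axis), by region. Filled points carry exact 95% Poisson intervals, open squares leave out the gene's highest barcode, and open triangles mark 3 UMIs where none was counted; LYPD8 spans 1294 to 5244 CPM while SPAI-2 runs from 0 UMIs in JEJ to 1182 CPM in NoPP.

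Most of these genes were concentrated in very few barcodes. In DUOD the highest barcode of each gene held 99.4% of the epithelial ITLN2 UMIs, 100% of those of RETNLB, 97.1% of SPAI-2 and 45.8% of LYZ. In JEJ the highest barcode held 96.0% of ITLN2, 55.4% of RETNLB and 27.5% of LYZ. In NoPP the highest share was 57.4% for SPINK1, 38.8% for LYZ, 32.7% for ITLN2, 27.3% for SPAI-2 and 24.8% for RETNLB. In IPP it was 98.9% for SPINK1, 98.2% for SPAI-2 and 49.4% for LYZ. Of all genes with at least 20 epithelial UMIs, 1.08% had 25% or more of them in 1 barcode in DUOD, 1.41% in JEJ, 1.87% in NoPP and 1.52% in IPP. LYPD8 was spread widely, with 1.76% in its highest barcode in DUOD, 1.94% in JEJ, 3.17% in NoPP and 2.66% in IPP. SPINK1 was in between in DUOD with 14.2% and in JEJ with 16.5%.

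**Figure D2:**
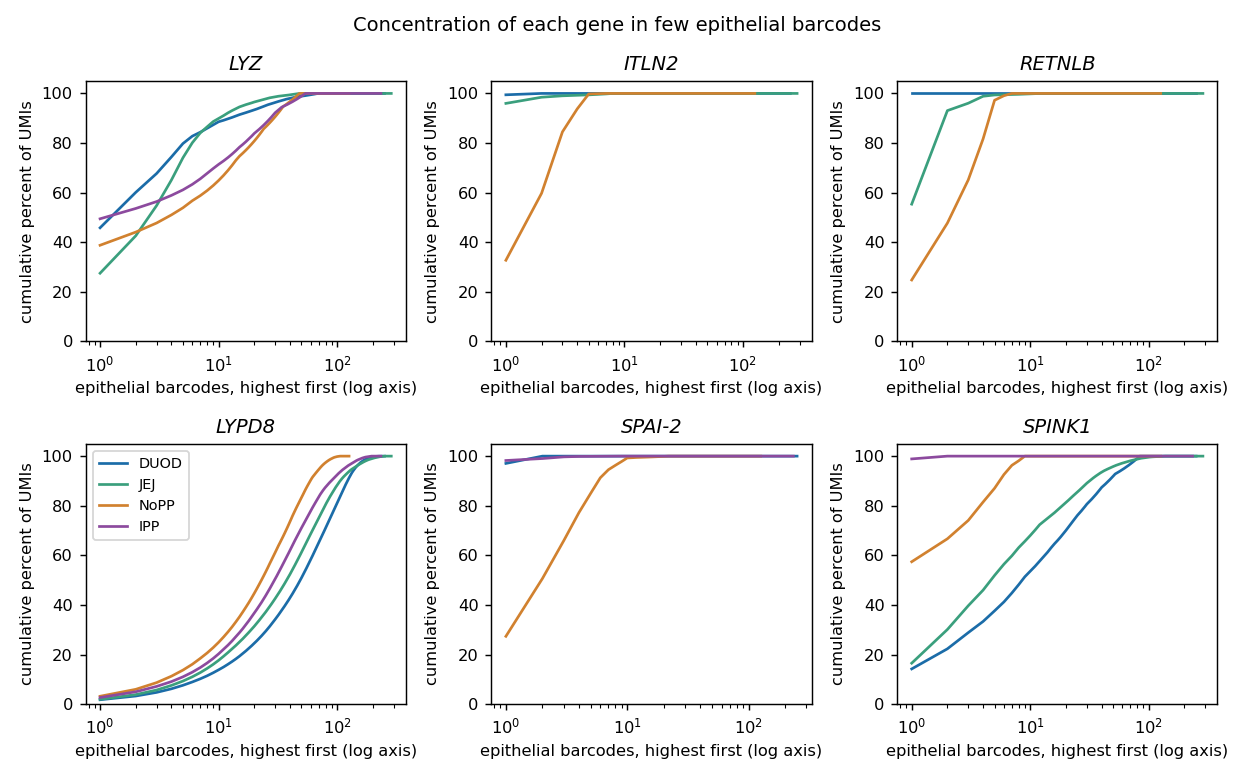
Cumulative percent of each gene's epithelial UMIs over epithelial barcodes ordered from the highest, 1 line per region (log axis for barcodes); regions with under 10 UMIs are not drawn. LYPD8 climbs slowly in all 4 regions, while a single barcode takes ITLN2 to 99.4% in DUOD and SPAI-2 to 98.2% in IPP.

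Lysozyme was measured at 280 CPM in DUOD (95% Poisson interval 267 to 294), 305 in JEJ (289 to 321), 152 in NoPP (134 to 173) and 96.1 in IPP (86.4 to 107). JEJ and DUOD differed by 1.09-fold (1.01 to 1.17), and NoPP was 2.00-fold lower than JEJ (1.75 to 2.30). Without the highest barcode of each region the levels were 152 CPM in DUOD, 221 in JEJ, 93.2 in NoPP and 48.6 in IPP, in the same order of regions.

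The classes that held LYZ differed along the gut. In DUOD the highest barcode, with 782 of 1707 epithelial LYZ UMIs, was the only one that passed the gate for Brunner glands, the mucous glands under the duodenal lining. It had 5 of 6 Brunner gland markers with 2696 UMIs between them. It held 496 of the 499 epithelial UMIs of the gland mucin MUC6, 1121 of 1130 of the gastrokine GKN3 and 1010 of 1280 of the trefoil peptide TFF2. LYZ made up 45132 CPM of this barcode (42024 to 48409). Another 625 LYZ UMIs lay in duodenal enterocytes, the absorptive cells, where 50 of 183 barcodes had at least 1 and the level was 135 CPM. The median duodenal enterocyte held 0 LYZ UMIs, and 1 barcode held 244 of the 625. Enterocytes of the other regions held 6.93 CPM in JEJ, 2.06 in NoPP and 5.91 in IPP. Median depth of enterocytes was 27101 UMIs in DUOD and 7541.5 in JEJ, and its part in the shares of barcodes with a UMI was not tested.

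In JEJ, 61.2% of all LYZ UMIs lay in 12 barcodes of the crypt gate, which marks the dividing and stem cell zone by genes such as OLFM4 and LGR5. The level there was 3195 CPM (2993 to 3406), 461-fold above enterocytes (308 to 723). The crypt barcodes with most LYZ held 390, 214, 146 and 86 UMIs, and 3 of the 12 held none. The 11 epithelial barcodes that met no narrower gate held another 275 UMIs, 173 of them in 1 barcode. At 7385 CPM they stood above the crypt barcodes. Of the 17 epithelial or mixed JEJ barcodes with at least 10 LYZ UMIs, 15 also had at least 10 SPINK1 UMIs, and 10 passed the crypt gate. Among the 285 JEJ barcodes with fewer LYZ UMIs, 5 passed it. In the other regions crypt barcodes also stood above enterocytes. Their LYZ levels were 456 CPM in DUOD (8 barcodes), 1478 in NoPP (3) and 3700 in IPP (1). The highest epithelial LYZ barcode was a crypt barcode in NoPP, with 95 of 245 UMIs, and in IPP, with 178 of 360.

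In the ileum much of the LYZ lay outside the epithelium. Barcodes of the myeloid gate, which uses macrophage and monocyte genes without LYZ, held 69.8% of the LYZ UMIs of NoPP and 49.2% of those of IPP. Their levels were 3374 CPM in NoPP (3173 to 3585) and 1229 in IPP (1120 to 1345), against 310 in DUOD with 25 such barcodes. A LYZ UMI was seen in 91.5% of 94 myeloid barcodes in NoPP and in 63.5% of 63 in IPP. In T and innate lymphoid barcodes, which give the background from free RNA, this share was 0.640% in NoPP and 1.09% in IPP. Median depth was 2668 UMIs in myeloid and 3525 in lymphoid barcodes of NoPP, and 3179 and 3609.5 in those of IPP. In NoPP, 70 of the 94 myeloid barcodes had only 3 myeloid markers, the lowest number allowed, and their LYZ level of 3414 CPM was close to the 3303 CPM of the other 24. In IPP the 33 barcodes with 3 markers stood at 2103 CPM and the other 30 at 832.

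Ileal goblet barcodes carried LYZ at a low but widespread level. A UMI was found in 34 of 40 goblet barcodes in NoPP and 39 of 41 in IPP, with at most 8 and 15 UMIs in 1 barcode. The level was 205 CPM in NoPP and 227 in IPP, which was 38.5-fold above enterocytes in IPP (22.3 to 72.0). Only 1 of 30 enterocyte barcodes in NoPP and 7 of 145 in IPP had a UMI, at median depths of 16611 and 16000 UMIs, as against 12621.5 and 16768 in goblet barcodes. The ratio in NoPP rests on that single enterocyte UMI, so only its interval, 17.5 to 3964, is given. In JEJ, 12 of 21 goblet barcodes had a LYZ UMI, and 127 of the 148 UMIs lay in 1 barcode of 83123 UMIs. That barcode passed 4 narrower gates, the crypt gate among them.

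**Figure D3:**
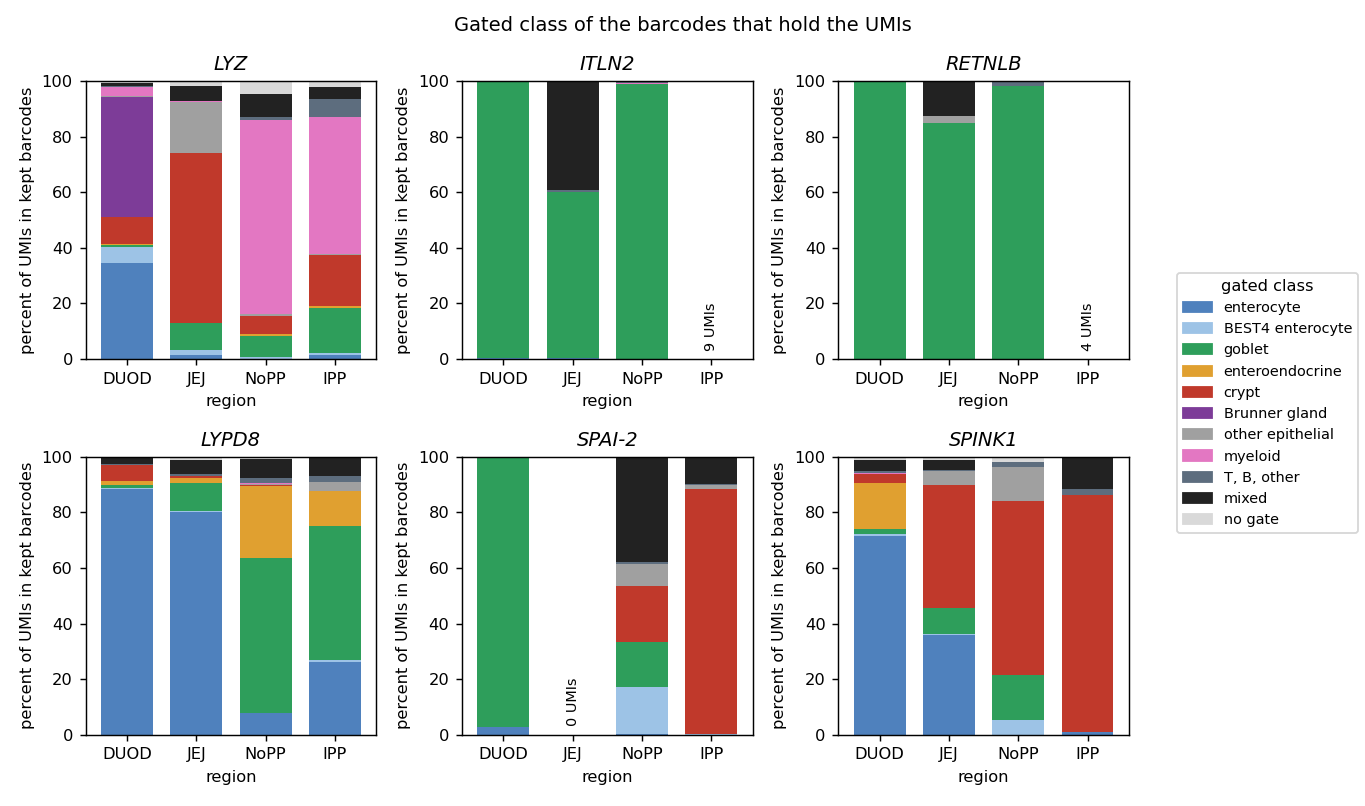
Percent of each gene's UMIs in kept barcodes, by the gated class of the barcode that holds them, per region; columns with under 10 UMIs show the number instead. LYZ lies mostly in the Brunner gland barcode and enterocytes in DUOD, in crypt barcodes in JEJ (61.2%) and in myeloid barcodes in NoPP (69.8%) and, as the largest part, in IPP (49.2%).

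The secreted lectin ITLN2 and the goblet peptide RETNLB were found together in a handful of goblet barcodes. ITLN2 stood at 29.7 CPM in DUOD (25.5 to 34.3), 112 in JEJ (103 to 123), 609 in NoPP (572 to 649) and 2.14 in IPP (0.922 to 4.21). RETNLB stood at 15.7 CPM in DUOD (12.8 to 19.2), 245 in JEJ (231 to 260), 67.7 in NoPP (55.6 to 81.7) and had 0 UMIs in IPP, where 3 UMIs would be 0.801 CPM. The highest level of ITLN2 was thus in NoPP and that of RETNLB in JEJ, and IPP was the lowest for both. Against NoPP, IPP was 285-fold lower for ITLN2 (144 to 663) and, with 3 UMIs in place of 0, 84.5-fold lower for RETNLB. Goblet barcodes numbered 4 in DUOD, 21 in JEJ, 40 in NoPP and 41 in IPP. Those that also passed the crypt gate numbered 1, 1, 6 and 1 in the same order. The part of cell composition in these levels was not tested.

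In barcodes that passed the epithelial gate, mixed ones included, 1 in DUOD, 3 in JEJ, 5 in NoPP and 0 of 281 in IPP had at least 10 ITLN2 UMIs. The same counts for RETNLB were 1, 5, 5 and 0. Of the 9 barcodes with at least 10 ITLN2 UMIs, 8 also had at least 10 of RETNLB: the only one in DUOD, all 3 in JEJ and 4 of 5 in NoPP. Of the 11 with at least 10 RETNLB UMIs, 8 also had at least 10 of ITLN2, the exceptions being 2 of 5 in JEJ and 1 of 5 in NoPP. In DUOD a single goblet barcode held 180 of 181 ITLN2 UMIs, all 96 RETNLB UMIs and 33 of 34 SPAI-2 UMIs, and it passed the crypt gate too. In JEJ 1 goblet barcode held 502 ITLN2 and 631 RETNLB UMIs. A mixed JEJ barcode with 6 goblet and 7 T cell markers held 341 ITLN2 and 162 RETNLB UMIs. A further JEJ goblet barcode had 13 ITLN2 and 430 RETNLB UMIs, so the ratio of the genes differed between barcodes. This last barcode held 83123 UMIs, against a median of 11884 in JEJ goblet barcodes, and passed 4 narrower gates. Whether it held several cells was not tested.

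In NoPP the ITLN2 UMIs per barcode were 321, 265, 243, 91 and 59, and all 5 barcodes had 6 of 6 goblet markers. The first 3 of them had 4 of 7 crypt markers each, the fourth had 1 and the fifth had 2. Over the 6 NoPP goblet barcodes that also passed the crypt gate, ITLN2 stood at 7875 CPM, and over the other 34 at 210 CPM. In JEJ the values lay the other way. The 1 goblet barcode that passed the crypt gate, the one of 83123 UMIs and 4 narrower gates, stood at 156 CPM. The other 20 stood at 1655 CPM, with 502 of their 507 ITLN2 UMIs in 1 barcode. RETNLB in NoPP stood at 647 CPM in the barcodes that passed the crypt gate and 81.3 in the others. Median depth of the former was 16972.5 UMIs and of the latter 12062, and the part of depth in this difference was not tested. LYPD8 in NoPP ran the other way, with 2270 CPM in the former and 4252 in the latter. The RefSeq gene table lists 2 pig genes under the name ITLN2, so reads of near-identical copies may have been split or lost in counting and the ITLN2 levels are uncertain to that extent.

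**Figure D4:**
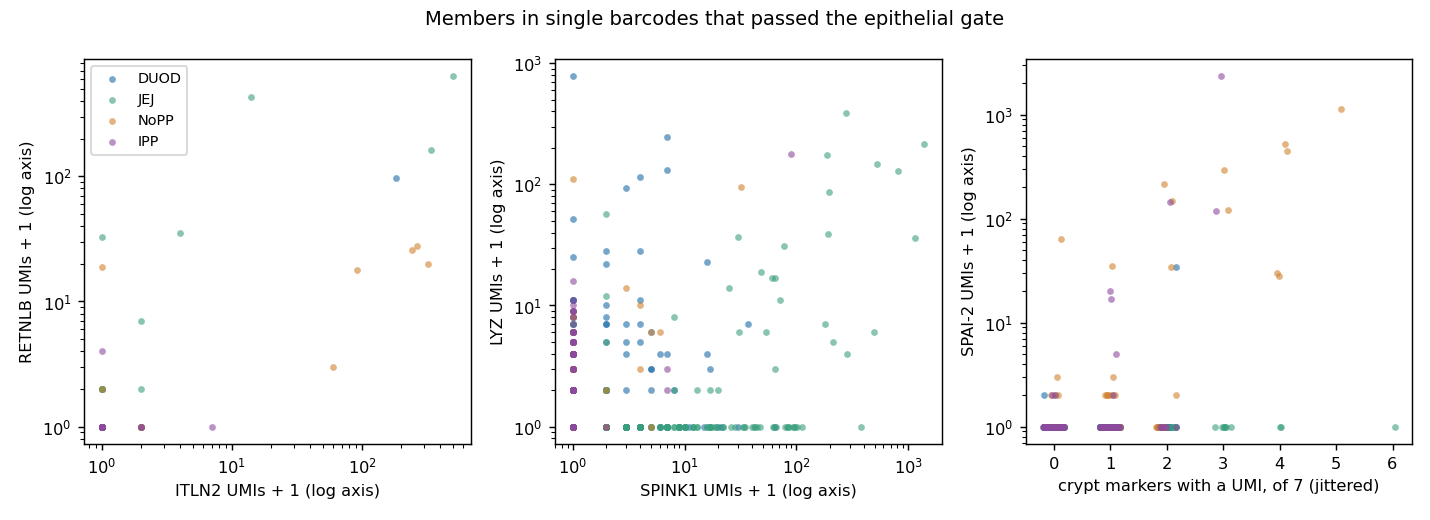
UMIs of 2 genes in each barcode that passed the epithelial gate, mixed ones included, with 1 added for the log axes, coloured by region; the right panel sets SPAI-2 against the number of crypt markers with a UMI. Of the 9 barcodes with at least 10 ITLN2 UMIs 8 also have at least 10 of RETNLB, LYZ and SPINK1 share JEJ barcodes, and the SPAI-2 barcodes of NoPP and IPP lie towards more crypt markers.

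LYPD8, the shed surface protein, was the most widespread of the 6 genes. It stood at 5244 CPM in DUOD (5186 to 5302), 1838 in JEJ (1799 to 1877), 2157 in NoPP (2086 to 2230) and 1294 in IPP (1258 to 1331). JEJ was 2.85-fold lower than DUOD (2.79 to 2.92), NoPP was 1.17-fold higher than JEJ (1.13 to 1.22) and IPP was 1.67-fold lower than NoPP (1.60 to 1.74). A UMI was found in 92.0% of epithelial barcodes in DUOD, 87.1% in JEJ, 84.1% in NoPP and 82.1% in IPP. After each barcode was thinned to 1000 UMIs these shares were 82.5, 67.8, 62.7 and 43.2%. In T and innate lymphoid barcodes the share without thinning was 28.8, 9.80, 4.13 and 3.08%, at 104, 31.6, 11.6 and 8.16 CPM. This was taken as what free RNA adds to a cell barcode. Free RNA itself, read from barcodes under 100 UMIs, held LYPD8 at 779, 760, 557 and 273 CPM in the same order.

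The classes that held LYPD8 differed between the upper and the lower gut. In DUOD enterocytes stood at 6277 CPM and goblet barcodes at 4296, so that goblet barcodes were 1.46-fold lower (1.32 to 1.62), from 4 barcodes. In JEJ enterocytes stood at 2126 and goblet barcodes at 2351 CPM, a ratio of 1.11 (1.03 to 1.18). In NoPP goblet barcodes stood at 3850 and enterocytes at 625 CPM, a ratio of 6.16 (5.46 to 6.97). In IPP they stood at 3720 and 586 CPM, a ratio of 6.35 (5.95 to 6.78). Goblet levels therefore lay between 2351 and 4296 CPM in all 4 regions, while those of enterocytes ranged from 586 to 6277. The spread over single barcodes was wide: the median of 183 DUOD enterocytes was 5929 CPM with a highest value of 18091, and the median of 145 IPP enterocytes was 292 with a highest of 3716.

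Enteroendocrine barcodes, the hormone-producing cells, showed LYPD8 at 591 CPM in DUOD, 520 in JEJ, 2463 in NoPP and 1433 in IPP. Their ileal levels were thus above those of ileal enterocytes, and their DUOD and JEJ levels were below those of enterocytes there. Crypt barcodes had less LYPD8 than enterocytes in all 4 regions, at 4609 CPM in DUOD, 235 in JEJ, 196 in NoPP and 20.8 in IPP. These were 8, 12, 3 and 1 barcodes, and the crypt barcodes of DUOD were deep, with a median of 46874.5 UMIs.

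**Figure D5:**
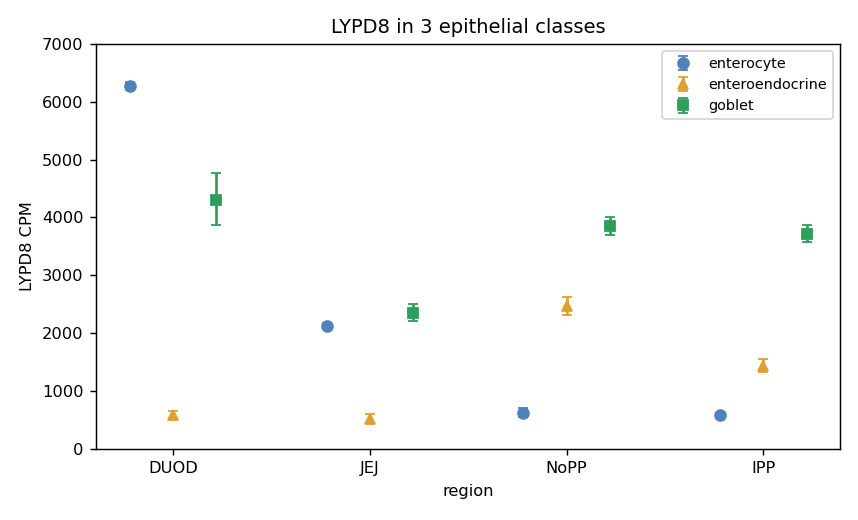
LYPD8 level in CPM in enterocyte, enteroendocrine and goblet barcodes of each region, with exact 95% Poisson intervals that cover counting error only. Enterocytes range from 6277 CPM in DUOD to 586 in IPP, while goblet barcodes lie between 2351 and 4296.

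Of the 2 protease inhibitors, SPAI-2 was found almost wholly in the ileum. It stood at 5.58 CPM in DUOD (3.86 to 7.79), 1182 in NoPP (1129 to 1236) and 635 in IPP (610 to 661). In JEJ 0 UMIs were counted in 286 epithelial barcodes, where 3 UMIs would be 0.645 CPM, and 0 in all 986 kept barcodes. With 3 UMIs in place of 0, NoPP was 1832-fold higher than JEJ. It was 212-fold higher than DUOD (151 to 307), whose 34 UMIs included 33 in 1 goblet barcode. A UMI was found in 17.5% of epithelial barcodes in NoPP and 2.99% in IPP, against 1.05% and 0.578% of T and innate lymphoid barcodes.

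The barcodes with much SPAI-2 carried crypt markers and fell into several classes. In IPP 1 crypt barcode held 2338 of the 2380 epithelial UMIs, and without it the level was 11.2 CPM. That was below the 25.8 CPM of free RNA in IPP, read from barcodes under 100 UMIs. Free RNA of NoPP held SPAI-2 at 176 CPM. In addition, 2 mixed IPP barcodes held another 142 and 116 UMIs, with 8 and 5 T cell markers. Outside them, 2 barcodes of the gate for M cells, which take up antigen over the follicles, held 19 and 16 UMIs. In NoPP a mixed barcode with 5 crypt and 9 T cell markers held 1130 UMIs. It was followed by a barcode of the BEST4 enterocyte gate with 520, a goblet barcode with 443, crypt barcodes with 291 and 215 and an otherwise ungated epithelial barcode with 148. These had 4, 4, 3, 2 and 2 crypt markers in that order. Of the 12 epithelial or mixed NoPP barcodes with at least 10 SPAI-2 UMIs, 8 passed the crypt gate, as did 3 of the other 140. The 3 NoPP crypt barcodes stood at 9426 CPM and the 10 otherwise ungated epithelial ones at 9258. The 30 enterocyte barcodes of NoPP held 7 SPAI-2 UMIs between them, or 14.4 CPM, and the 34 goblet barcodes that did not pass the crypt gate held 1.

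SPINK1, the trypsin inhibitor, was highest in JEJ. It stood at 72.8 CPM in DUOD (66.2 to 79.9), 1801 in JEJ (1763 to 1840), 33.5 in NoPP (25.2 to 43.8) and 23.8 in IPP (19.1 to 29.2). JEJ was 24.7-fold higher than DUOD (22.5 to 27.3) and NoPP was 53.7-fold lower than JEJ (41.1 to 71.5). The 2 ileal regions differed by 1.41-fold, with an interval for that ratio of 0.988 to 2.00. Without its highest barcode of 1383 UMIs, JEJ remained at 1503 CPM, whereas IPP was at 0.267 CPM, since 88 of its 89 UMIs lay in the crypt barcode that also held most of its SPAI-2.

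Within JEJ all 12 crypt barcodes had SPINK1, from 18 to 1383 UMIs with a median of 89. Their level was 13311 CPM, 14.5-fold above that of enterocytes at 918 CPM (13.8 to 15.2). The 11 JEJ epithelial barcodes that met no narrower gate came near it, at 11574 CPM with a UMI in 9. Their median depth was 2331 UMIs, against 12017.5 in crypt barcodes. The part of depth in passing the crypt gate was not tested. In JEJ 94 of 190 enterocyte barcodes had a UMI, against 33 of 612 T and innate lymphoid barcodes. Goblet barcodes of JEJ had 803 of their 835 UMIs in the barcode of 83123 UMIs that passed 4 narrower gates, the crypt gate among them. In DUOD crypt barcodes were 2.03-fold lower than enterocytes (1.19 to 3.75), at 36.1 and 73.1 CPM, on 14 UMIs in 8 barcodes. The crypt gate asked for 2 of 7 markers and 5 UMIs at any depth. Those DUOD barcodes had a median depth of 46874.5 UMIs and held LYPD8 at 4609 CPM, against 235 in JEJ crypt barcodes. Whether the gate marks the same cells in DUOD and JEJ was not tested. The 30 enterocyte barcodes of NoPP had 0 SPINK1 UMIs, and the 145 of IPP had 1.

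Across the 20 pairs of region and class with at least 20 barcodes, the genes whose log2(CPM + 10) profiles were most like those of ITLN2 and RETNLB were OLFM4 (Pearson r = 0.99 and 0.97), a glycoprotein of crypt cells, and FCN2 (0.95 and 0.96), a ficolin lectin. Next came the complement gene C5 for ITLN2 (0.95) and ITLN2 itself for RETNLB (0.94). For LYPD8 they were TM4SF4 (0.97), FUT2 (0.96), a fucosyltransferase, and SERPINF2 (0.95), which encodes the plasmin inhibitor. For SPINK1 they were the transcription factor GATA4 (0.89), the immunoglobulin transporter PIGR (0.88) and the carotenoid-cleaving enzyme BCO1 (0.87). SPAI-2 was nearest to ADAMTS5 and IGFBP6 (both 0.97) and IGFBPL1 (0.84), and LYZ to ARFGEF2 (0.90), PIK3CB (0.89) and CIART (0.88). Among the 20 pairs SPAI-2 was highest in NoPP goblet barcodes, at 902 CPM, and next in NoPP enterocytes, at 14.4. In the former, 443 of 501 UMIs lay in 1 barcode, so the SPAI-2 values rest mainly on that pair. The profiles share libraries and depth, most crypt barcodes lie in pairs too small to enter, and profiles led by a few barcodes take along every gene of those barcodes.

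Other antimicrobial and protease inhibitor genes also differed along the gut. Of 79 such genes listed, 64 were in the tables, and 7 of the listed genes also served as markers for a gate. JEJ was at least 2-fold higher than DUOD for 9 of 29 with enough UMIs and lower for 7. NoPP was higher than JEJ for 16 of 29 and lower for 3, higher than DUOD for 12 of 31 and lower for 7. IPP was higher than NoPP for 4 of 30 and lower for 9. Of all genes compared, 10.9, 17.0, 22.9 and 3.22% were that much higher in these 4 comparisons, in the same order. The shares that much lower were 8.29, 7.28, 8.41 and 13.4%. The median log2 ratio of the listed genes was -0.28, 1.08, 0.22 and -0.18, beside 0.15, 0.24, 0.36 and -0.31 over all genes compared.

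The largest differences among these genes ran in several directions along the gut. CSTA, a cysteine protease inhibitor, stood at 607 CPM in DUOD, 3.01 in JEJ, 42.2 in NoPP and 157 in IPP. PIGR, which carries antibodies into the lumen, stood at 515 CPM in JEJ against 15.3 in DUOD, 36.7 in NoPP and 15.8 in IPP. DMBT1, a mucosal scavenger receptor, stood at 68.8 CPM in JEJ, 25.3 in DUOD and 3.11 in NoPP. DEFB1, a beta-defensin with 2 entries in the files of which 1 is given, was 14.4-fold higher in NoPP than in JEJ (9.43 to 22.9), and IPP was 6.30-fold lower than NoPP. SLPI, an elastase inhibitor of the same family as SPAI-2, had 65 UMIs in NoPP, 2 in JEJ and 0 in DUOD. With 3 UMIs in place of 0, NoPP was 82.1-fold higher than DUOD. The mucin MUC2 and the trefoil peptide TFF3 were also higher in NoPP than in DUOD, by 66.6-fold and 50.7-fold, but both were among the goblet markers, and goblet barcodes made up 4 of 251 epithelial barcodes in DUOD and 40 of 126 in NoPP. CCL20, a chemokine with antibacterial activity and an M cell marker here, was 2.74-fold higher in IPP than in NoPP (2.54 to 2.96). BPI, which binds endotoxin, CHIA, a chitinase, and WFDC2 stood at 13.8, 61.0 and 14.9 CPM in DUOD and at 0.215, 5.59 and 1.29 in JEJ. The ribonuclease ANG stood at 2.62 CPM in DUOD, 13.1 in JEJ, 61.5 in NoPP and 20.8 in IPP.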

How the data were processed

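The authors deposited 1 matrix of raw UMI counts per region (count, per the file headers), made with Cell Ranger, version 4.0.6 per the submitters' processing notes; no source used here names the genome build. The members, the gene lists and the marker lists were chosen with earlier results of these data known, and the marker minimums of the gates were set after the data were seen. No doublet caller was run: barcodes that passed gates of more than 1 lineage were set apart. UMIs were summed over the barcodes of a class and divided by the class total (CPM). Intervals are exact 95% Poisson intervals, intervals of a ratio of Poisson counts and Clopper-Pearson intervals; a ratio against 0 UMIs used 3 UMIs. Genes with at least 20 UMIs in both regions together were compared, and 2-fold was called higher or lower. Named genes were the 6 members, up to 5 list genes per direction and comparison with at least 50 UMIs, and the 3 nearest profiles of each member. The ratios and intervals were run on simulated Poisson counts as a check of the computation. Such counts hold no spread between barcodes, so that run cannot test the intervals for genes led by few barcodes. Total depth was 91813234 UMIs in DUOD, 64364750 in JEJ, 44726845 in NoPP and 65583520 in IPP. Analyses used Python 3.11.15, numpy 2.4.6, scipy 1.17.1, pandas 2.3.3 and, for clusters, scanpy 1.11.5.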

Additional observations from a re-analysis of the deposited data

Results flagged for a closer look

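LYPD8 was lower in goblet barcodes than in enterocytes in DUOD (log2 ratio -0.55) and higher in JEJ (0.15), NoPP (2.62) and IPP (2.67); the difference between regions was not tested. SPINK1 was lower in crypt barcodes than in enterocytes in DUOD (log2 ratio -1.02) and higher in JEJ (3.86). It was also higher in NoPP (6.41, with 3 UMIs in place of 0 in enterocytes) and in IPP (12.08, with 1 crypt barcode and 1 enterocyte UMI). The difference between regions was not tested either. The DUOD crypt barcodes were deep and held much LYPD8, and whether they are the same cells as in JEJ was not tested.

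Barcodes over the mitochondrial limit were used in no comparison. In NoPP 902 such barcodes held ITLN2 at 148 CPM, above the 48.1 CPM of barcodes under 100 UMIs, which give the level of free RNA. They had 836 ITLN2 UMIs, and 7 barcodes had at least 10. In DUOD 2435 such barcodes held LYPD8 at 1339 CPM, against 779 CPM of free RNA, and 736 of them had at least 10 UMIs. For the other pairs of gene and region, the level over the limit did not clear that of free RNA by counting error. Mitochondrial UMIs take up most of the total in barcodes over the limit, so the levels were also computed without them on both sides, an alternative chosen after seeing the data. ITLN2 in NoPP then stood at 324 CPM against 78.2 of free RNA, and LYPD8 in DUOD at 3711 against 2506. No other pair of the 22 with a UMI over the limit cleared free RNA on that scale. SPAI-2 in NoPP came near, at 307 CPM (286 to 329) against 287, with at least 10 UMIs in 20 barcodes.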

How the results depend on the processing

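Of 238 log2 ratios of the 6 genes recomputed under 10 alternatives, 215 kept their label against 2-fold and 11 moved inside it. Another 12 moved outside it and 0 changed direction once past it. For ratios inside 2-fold in the main analysis, a change of direction was not counted. With a mitochondrial limit of 10%, genes at least 2-fold lower numbered 1 in JEJ against DUOD, 0 in NoPP against DUOD and 4 in IPP against NoPP. Without each gene's highest barcode they numbered 1 in JEJ against DUOD and 4 in IPP against NoPP. IPP against NoPP gave 5 with the mean of the barcodes' CPM, 4 with barcodes of 2 lineages kept and 4 with Leiden clusters, while NoPP against DUOD gave 1 with shared barcodes kept. With no minimum of UMIs, 14 listed genes were lower in IPP than in NoPP. The cause was not tested, beyond the removal of the barcodes themselves. LYZ in NoPP against JEJ lay at the threshold and was inside it in 6 alternatives.

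With 1 matrix per region, levels led by 1 barcode cannot be told apart from the choice of animal or droplet. Levels in crypt, Brunner gland and DUOD goblet barcodes rest on 1 to 12 barcodes. Epithelial barcodes with a 10% mitochondrial limit numbered 104, 148, 70 and 51 in DUOD, JEJ, NoPP and IPP. A gene with 0 UMIs is limited only to under 3 UMIs of its class. No paired analysis was possible because the matrices carry no replicate number for a barcode and no result comes from a test.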
